A study of Mus musculus with 2 samples.

Results

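The genes described here are the 78 mouse genes that encode proteins named as mitochondrial ribosomal proteins, of 55536 genes quantified. They were chosen by symbol alone, as the genes whose symbol begins with Mrpl or Mrps and a digit and that have at least 1 annotated protein-coding transcript, with pseudogene symbols left out, so the rule uses no measured value. The libraries, made from total RNA after reduction of ribosomal RNA, came from whole heart tissue of 2 males of the strain B6CASTF1/J, the F1 of a B6 and a CAST parent, aged 2 months and obtained from The Jackson Laboratory, with 300 ng of RNA behind each library. The labels name no treatment, transgene or second group, and the mice are called replicate 1 and replicate 2 after their biological replicate numbers. Their donor entry is shared while the males are numbered separately, and they were read as 2 animals. Levels are given with their spread (SD, n = 2 mice) and without p, since 2 pairs allow no exact 2-sided p under 0.5.

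Mitochondria keep a small genome that encodes a few core subunits of the respiratory chain and the ribosomal RNAs of their own ribosome, the mitoribosome. All proteins of the mitoribosome are encoded in the nucleus, made on cytosolic ribosomes and imported. Some descend from proteins of the bacterial ribosome and others are found only in mitochondria, where they took over space held by RNA in bacteria. Heart muscle is rich in mitochondria, and inherited defects in several of these genes are known in people with cardiomyopathy.

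Expected counts over genes summed to 38963569 in replicate 1 and 44321172 in replicate 2, and the 78 genes took 0.209% and 0.220% of them. Markers of cardiomyocytes had a median of 3423 TPM (a level corrected for transcript length and scaled to the whole library), and markers of fast skeletal muscle, lung and liver were near 0, with medians of 0.0025 and 0 TPM. All 4 red blood cell markers were higher in replicate 1, with a median log2 ratio of -1.79 for replicate 2 over replicate 1. The 3 adipocyte markers with enough counts were higher in replicate 2, with a median log2 ratio of 0.91. In whole tissue, fewer cells of a type and less RNA per cell cannot be told apart.

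Nearly all of the genes were detected at moderate levels in both hearts. At or above 1 TPM in both mice were 77 of the 78 genes, and 75 were at or above 10 TPM. Of all 22015 nuclear protein-coding genes, 10957 (49.8%) were at or above 1 TPM in both mice and 4815 at or above 10 TPM. Their median was 29.96 TPM in replicate 1 and 30.3 TPM in replicate 2 (mean 30.1 ± 0.251), which lay at the 82.5th percentile of the 10957 nuclear protein-coding genes at or above 1 TPM in both mice. The sum over the 78 genes was 3086 and 3280 TPM, or 0.799% and 0.832% of the TPM of nuclear protein-coding genes. The gene below 1 TPM in a mouse was Mrpl23, at 4.94 TPM in replicate 1 and 0.82 TPM in replicate 2, which is described with its processed copy further on.

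The levels were spread over a wide range, and the highest genes came from both subunits. The highest was Mrpl42 (chr10:95480805-95501940, minus strand, mm10), a mitochondria-specific protein of the large subunit, at 159.3 TPM in replicate 1 and 171.7 TPM in replicate 2. Mrpl30, the counterpart of a bacterial large-subunit protein, followed at 153.1 and 171.5 TPM, and Mrps21, a small-subunit protein with a bacterial counterpart, at 129.7 and 134.1 TPM. These genes kept their places at the top in both hearts, although the ranges of Mrpl42 and Mrpl30 overlapped. Mrpl51 stood at 117.2 and 131.6 TPM, Mrpl33 at 113.0 and 127.1 TPM and Mrps23 at 117.1 and 116.2 TPM, so their order changed between the mice. These 6 genes were the only members at or above 100 TPM in both mice, and together they held 25.6% and 26.0% of the TPM of all 78. The next were Mrpl12, the multicopy stalk protein, at 84.0 and 89.1 TPM, Mrps36 at 71.7 and 79.0 TPM, Mrpl3, a core protein of the large subunit, at 68.3 and 70.1 TPM, and Mrps35, a mitochondria-specific protein of the small subunit, at 62.0 and 64.3 TPM. Both mice were close for each of these genes, and 70 of the 78 had an SD of at most 10% of the mean. That share was not computed over all detected genes, so closeness cannot be called particular to the members.

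At the other end, after Mrpl23, stood Mrps10 at 9.27 and 8.64 TPM and Mrps30 at 9.83 and 9.51 TPM. Mrps10 is a small-subunit protein with a bacterial counterpart, and Mrps30, in spite of its symbol, is a mitochondria-specific protein of the large subunit. Mrpl1, which forms the mobile stalk beside the tRNA exit site, stood at 11.4 and 10.5 TPM, Mrps22 at 10.6 and 12.8 TPM and Mrpl19 at 11.0 and 12.9 TPM. These 5 genes lay between 8.64 and 12.9 TPM in the 2 hearts and overlapped in part. Mrpl49 followed at 12.6 and 14.9 TPM, Mrpl47 at 13.5 and 15.1 TPM, Mrpl32 at 14.8 and 16.2 TPM and Mrps11 at 15.7 and 15.5 TPM. Mrpl32 is known as the ribosomal protein that the m-AAA protease must cut before it joins the ribosome, and the genes of that protease, Afg3l2 and Spg7, had 59.0 ± 0.651 and 35.04 ± 1.76 TPM. Between the highest and lowest gene the mean TPM differed 57.5-fold, and 18.5-fold when the lowest, Mrpl23, was set aside for the next, Mrps10.

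**Figure D1:**
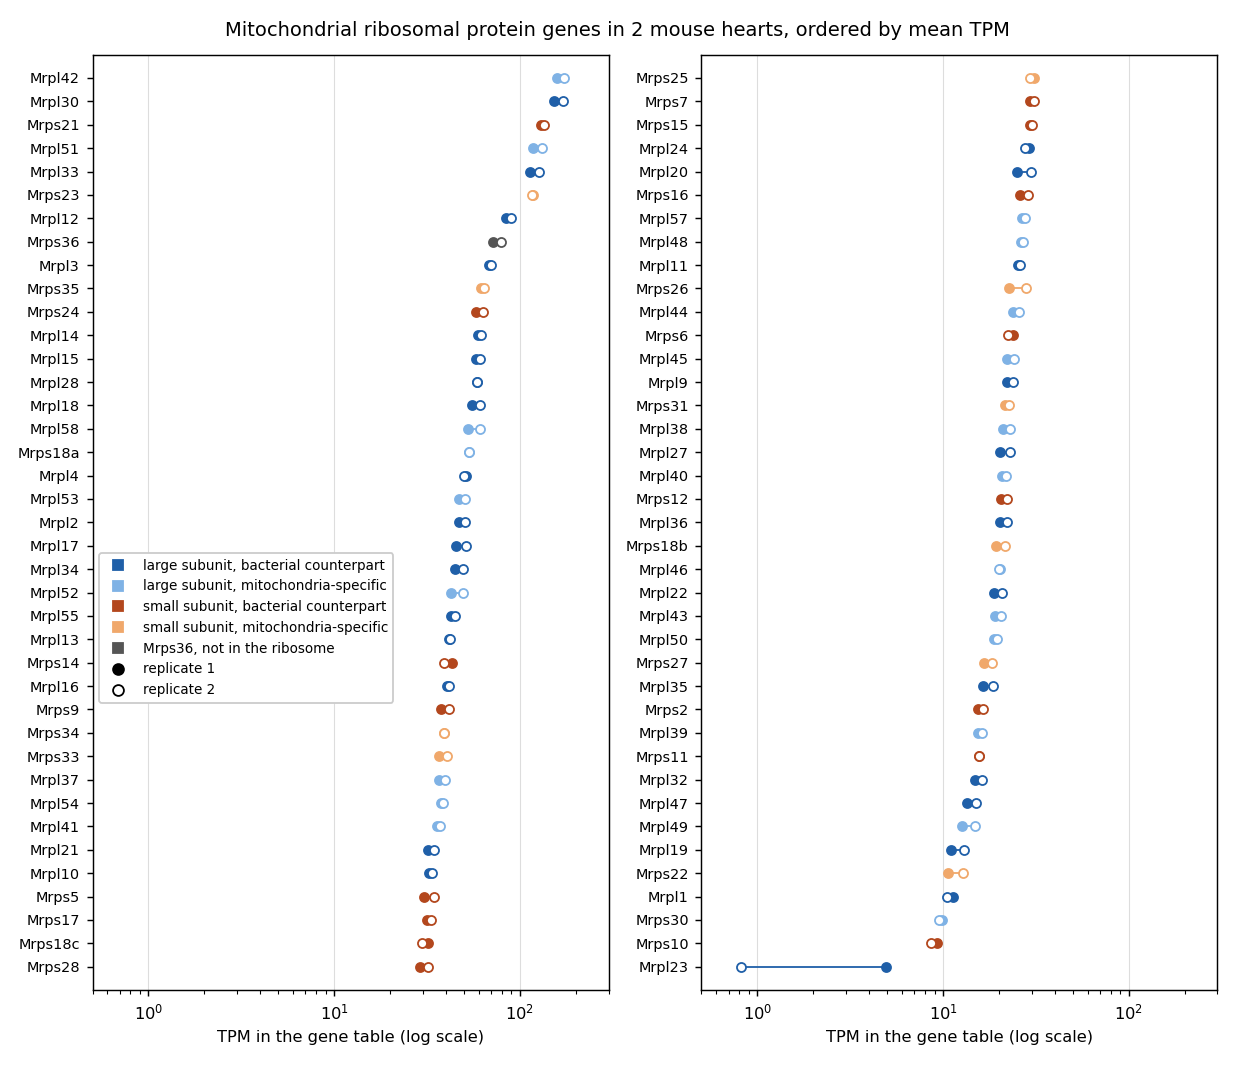
TPM of each of the 78 genes in the gene table (log scale), ordered by mean TPM in 2 columns, with replicate 1 as filled and replicate 2 as open circles and colours for subunit and origin. The circles of a gene lie close together except for Mrpl23, at 4.94 and 0.82 TPM, and 6 genes lie above 100 TPM in both mice.

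The order of the genes was stable between the hearts at a distance but not between neighbours. Of all 3003 pairs of genes, 2918 (97.2%) had the same order in both mice, whereas of the 77 pairs of neighbours in the ordered list 36 did. In 18 of those neighbouring pairs the gap between the means was larger than the spread between the mice. Across genes, Spearman's rho of the levels in the 2 mice was 0.993, a description of these 2 libraries in which genes are not independent replicates.

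Genes of both subunits and of both origins had similar levels. The 51 large-subunit genes had a median of 31.8 TPM in replicate 1 and 33.4 TPM in replicate 2, and the 26 small-subunit genes 29.4 and 29.8 TPM. The large subunit was thus 1.10 ± 0.0285 times as high, in the same direction in both mice. The 46 genes with a bacterial counterpart had medians of 31.1 and 32.6 TPM and the 31 mitochondria-specific genes 26.3 and 27.7 TPM, a ratio of 1.18 ± 0.000824. Within the large subunit this ratio was 1.40 ± 0.0265 and within the small subunit 1.08 ± 0.0310. In the second transcript table the difference by origin fell to a ratio of 1.05 ± 0.0251 over all genes. There the ratio was 1.19 ± 0.0196 within the large subunit and 1.08 ± 0.0425 within the small subunit. The range within each class, from 8.96 to 131.9 TPM in mean for bacterial counterparts of the small subunit, was far wider than these differences.

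Each class held both high and low genes. Among large-subunit genes with a bacterial counterpart Mrpl30, Mrpl33 and Mrpl12 were highest and Mrpl23 and Mrpl1 lowest. Among mitochondria-specific genes of the large subunit Mrpl42, Mrpl51 and Mrpl58 were highest, and Mrps30 and Mrpl49 lowest. Mrpl58, which retains peptidyl-tRNA hydrolase activity and frees stalled ribosomes, had 52.4 and 61.0 TPM. In the small subunit Mrps21, Mrps24 and Mrps14 led the genes with a bacterial counterpart, at 131.9 ± 3.10, 60.9 ± 3.76 and 41.2 ± 2.86 TPM, and Mrps10 and Mrps11 were lowest. Mrps23, Mrps35 and Mrps34 led its mitochondria-specific genes, at 116.6 ± 0.629, 63.2 ± 1.61 and 39.1 ± 0.0354 TPM, and Mrps22 and Mrps27 were lowest. These orders rest on all transcripts of a gene. On protein-coding transcripts alone, Mrps24, Mrps14 and Mrps35 had means of 7.14, 2.255 and 27.4 TPM in the first transcript table. In the second they had 2.65, 49.8 and 9.38 TPM.

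**Figure D2:**
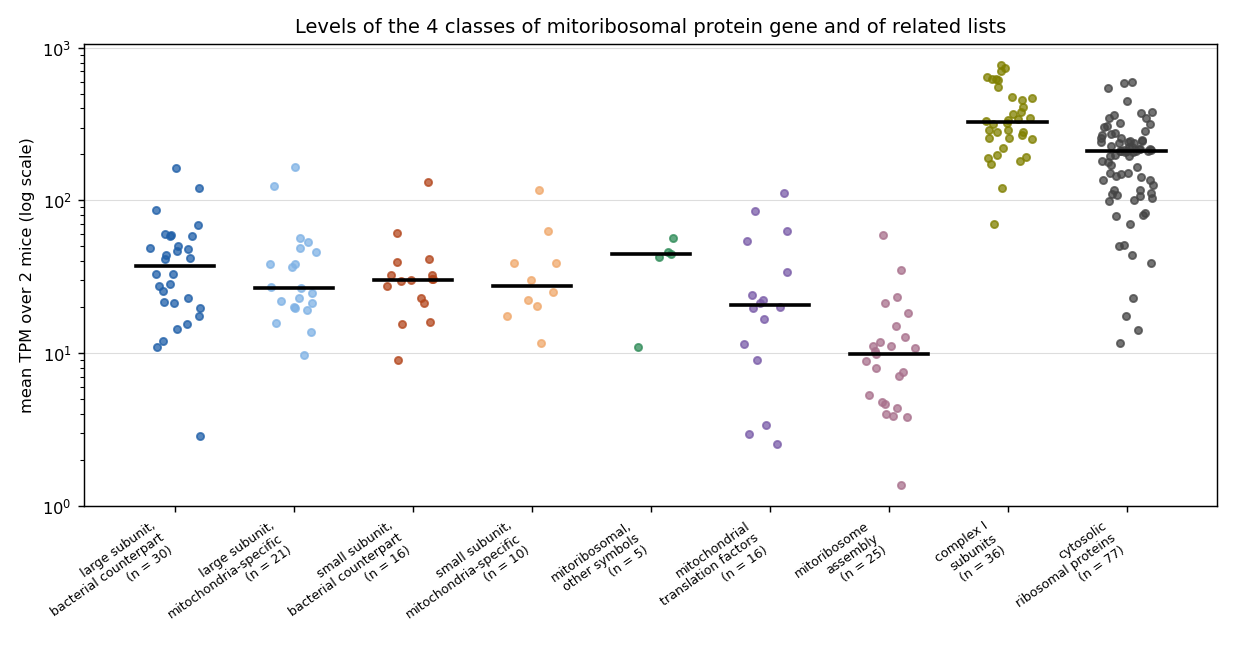
Mean TPM over the 2 mice (log scale) of each gene in the 4 classes and in 5 related lists, with a black bar at the median of the points. The 4 classes overlap over most of their range, while every complex I subunit lies at 70.2 TPM or higher.

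Levels within named parts of the large subunit were set side by side. The stalk recruits translation factors and is built from Mrpl10 and Mrpl11 at its base and several copies of Mrpl12. Mrpl12 stood at 86.5 ± 3.63 TPM, Mrpl10 at 32.9 ± 0.750 TPM and Mrpl11 at 25.6 ± 0.262 TPM, so the gene of the multicopy protein was the highest of these in both hearts. The central protuberance, which in mammals holds a tRNA in place of a bacterial ribosomal RNA, had 8 genes between 20.1 and 58.2 TPM in mean. Mrpl18 led with 55.0 and 61.3 TPM, then Mrpl58 as above and Mrpl55 with 42.5 and 45.0 TPM. Mrpl48 had 26.6 ± 0.332 TPM, Mrpl38 21.9 ± 1.39, Mrpl27 21.6 ± 1.71, Mrpl40 21.3 ± 0.841 and Mrpl46 20.1 ± 0.205 TPM. The last 4 of these lay within 2 TPM of each other and did not separate beyond their spread in every case. Around the exit of the peptide tunnel, where the ribosome is held to the inner membrane through Mrpl45, the 7 genes included Mrpl23. Mrpl17 had 45.5 and 51.0 TPM, Mrpl24 29.0 and 27.5 TPM, Mrpl44 23.9 and 25.5 TPM and Mrpl45 22.04 and 23.96 TPM. Mrpl22 had 18.9 and 20.7 TPM and Mrpl47 13.5 and 15.1 TPM, and Mrpl23 was the lowest. The SD of log2 TPM over genes was 0.66 in the central protuberance and 1.28 at the tunnel exit. Mrpl23 alone made that difference, since the SD at the exit was 0.58 over the other 6 genes and 0.66 with Mrpl23 at the sum of its own level and that of its processed copy.

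Mammals have 3 paralogs of a single bacterial protein of the small subunit, each in a different place of the ribosome. Mrps18a, which sits in the large subunit, had 53.1 and 53.5 TPM. Mrps18c, which holds the bacterial position, had 32.0 and 29.6 TPM, and Mrps18b, a separate small-subunit protein, had 19.3 and 21.5 TPM. Their order was the same in both hearts with no overlap. Mrps36 carries a ribosomal symbol but is known as a subunit of the alpha-ketoglutarate dehydrogenase complex of the citric acid cycle, and at 75.3 ± 5.16 TPM it ranked 8 of 78. The genes known from inherited cardiomyopathy in people, Mrpl3, Mrpl44, Mrps14 and Mrps22, had 69.2 ± 1.22, 24.7 ± 1.15, 41.2 ± 2.86 and 11.7 ± 1.51 TPM and so covered much of the range.

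The other genes of mitochondrial translation were set beside these. Mitoribosomal proteins that carry other symbols had a median 1.47 ± 0.0314 times that of the 78 genes. Among them Dap3, a GTP-binding protein of the small subunit, had 55.5 and 58.7 TPM, Chchd1 43.5 and 48.3 TPM, Ptcd3, an RNA-binding protein at the mRNA channel, 44.3 and 45.4 TPM and Aurkaip1 40.5 and 44.8 TPM. Gadd45gip1 of the large subunit was lower, at 10.6 and 11.4 TPM. The median of the 78 genes was 1.45 ± 0.0843 times that of 16 translation factors, in which the elongation factors Tufm (103.8 and 120.3 TPM) and Gfm1 (84.6 and 86.5 TPM) and the RNA-binding Slirp (61.5 and 64.7 TPM) were highest. The release factor Mtrf1 (3.09 and 2.79 TPM) and the formyltransferase Mtfmt (2.82 and 2.24 TPM) were lowest. It was 3.05 ± 0.191 times that of 25 genes of ribosome assembly, which ran from Afg3l2, Spg7 and the helicase Dhx30 (20.5 and 26.3 TPM) down to the GTPase Gtpbp10 (3.99 and 3.66 TPM) and the nuclease Ybey (1.30 and 1.42 TPM).

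Subunits of complex I, the first enzyme of the respiratory chain, and proteins of the cytosolic ribosome stood far higher. The median of 36 complex I subunits, of 37 listed, was 10.8 ± 0.641 times that of the 78 genes, and the median of 77 cytosolic ribosomal proteins 6.89 ± 0.534 times. The spread of levels between genes differed less than the medians, with an SD of log2 TPM over genes of 1.02 for mitochondrial and 1.13 for cytosolic ribosomal proteins and 0.76 for complex I. The ribosomal RNAs that the proteins bind, mt-Rnr1 of the small and mt-Rnr2 of the large subunit, were listed at 62555 and 63859 TPM and at 118612 and 120243 TPM. No source used here says how far the reduction of ribosomal RNA acted on these RNAs.

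The 2 hearts differed little in these genes. Ratios were taken as replicate 2 over replicate 1 of counts scaled by TMM (a library-size scaling that trims the extreme genes), and their intervals cover counting error only. The median log2 ratio of the 78 genes was 0.04, beside 0.01 over the 12453 genes tested. At least 1.5-fold apart was 1 of the 78 genes, Mrpl23, which was higher in replicate 1, beside 2.09% of all genes tested in either direction and 1.27% higher in replicate 1. Mrpl23 was also past 2-fold, as were 0.57% of all genes tested in either direction and 0.369% higher in replicate 1. The counting interval excluded 0 in 9 of the 78 genes, beside 19.6% of all genes tested. All members took part, since all had a mean expected count of at least 50.

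Of the 78 genes, 50 (64.1%) were higher in replicate 2 and 28 higher in replicate 1, beside 52.0% of all genes tested that were higher in replicate 2. Scaled by total counts the split of the members was 66 to 12, with 67.6% of all genes higher in replicate 2, and by spike-ins 76 to 2, with 87.9% of all genes, where the median of all genes moved to 0.05 and 0.18 on the log2 scale and that of the members to 0.09 and 0.21. Cytosolic ribosomal proteins had a median log2 ratio of 0.14, with 73 of 77 higher in replicate 2, and complex I subunits of 0.05, with 33 of 36 higher, both to be read beside the same 52.0%. The part of the red blood cell and adipocyte differences between the hearts in these ratios was not tested.

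Apart from Mrpl23, the ratios lay between -0.25 and 0.23. Mrps26 had 749 counts in replicate 1 and 1030 in replicate 2, a log2 ratio of 0.23 (counting interval 0.09 to 0.36), and was the highest. Mrps22 followed with 366 and 495 counts and 0.20 (0.00 to 0.40), then Mrpl20 at 0.15, Mrpl47 at 0.14 and Mrpl49 at 0.14. On the other side Mrps10 had 290 and 286 counts and a log2 ratio of -0.25 (-0.49 to -0.01), Mrps14 had 887 and 933 counts and -0.16 (-0.29 to -0.03), Mrpl1 stood at -0.14 and Mrps6 at -0.13. None of these reached 1.5-fold, and each has 1 library per mouse, so no replicate check was possible.

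**Figure D3:**
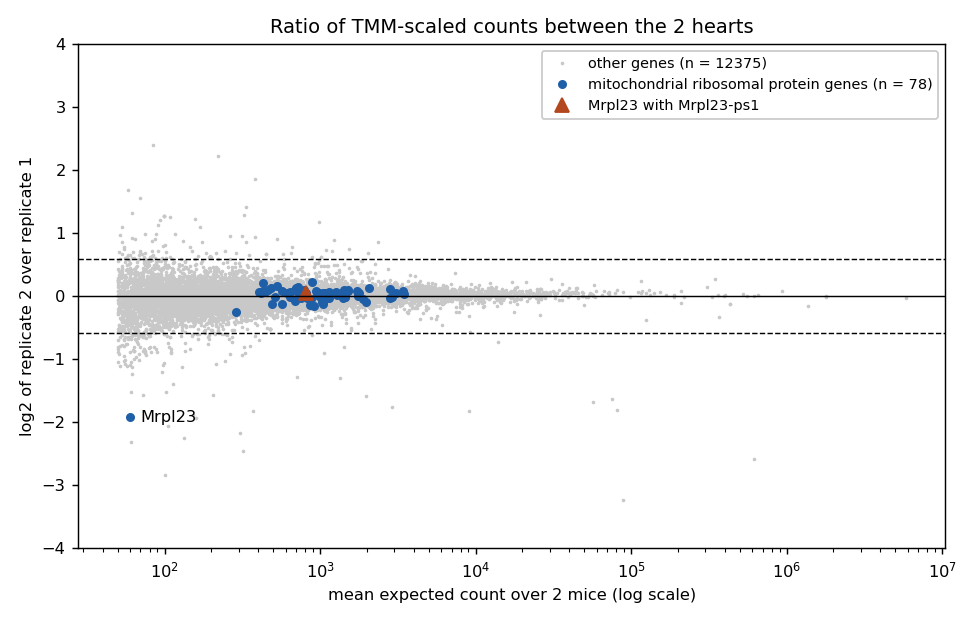
Log2 of replicate 2 over replicate 1 of TMM-scaled counts against the mean expected count (log scale) for 12453 genes, with the 78 members in blue, dashed lines at 1.5-fold and 10 other genes outside the axis. The members lie near 0 except Mrpl23 at -1.91, and Mrpl23 with its copy (triangle) lies at 0.05.

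Mrpl23, a protein at the exit of the peptide tunnel, had the lowest level of the 78 genes and the largest ratio between the hearts in the gene table. There it had 91.2 expected counts in replicate 1 and 28.3 in replicate 2, a log2 ratio of -1.91 (counting interval -2.60 to -1.31). In the second transcript table, which was quantified from the reads without an alignment file, it had 765 and 935 estimated counts and 59.7 and 64.1 TPM, rank 20 of 78. The counts that separate the tables stood on Mrpl23-ps1 (chr2:74591330-74591909, minus strand, mm10), a processed pseudogene, which held 644 and 868 expected counts in the gene table and 0 and 0 in the second table. The copy thus held 87.6% and 96.8% of the summed counts of the gene table.

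The annotated sequences show how far these loci can be told apart. Mrpl23-ps1 is 580 bases long, and 540 of them aligned to the transcript Mrpl23-201 with 0 mismatches and no gap, which includes all 438 coding bases. The first 180 coding bases of Mrpl23-201, from GENCODE M21, are shown because the copy holds the identical run from its base 18 to 197. The start codon is in capitals.
Mrpl23: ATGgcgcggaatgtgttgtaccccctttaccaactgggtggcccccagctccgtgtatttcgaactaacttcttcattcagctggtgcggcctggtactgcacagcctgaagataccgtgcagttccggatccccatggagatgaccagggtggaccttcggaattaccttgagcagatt
Any read that lies inside the shared run could come from either locus. Summed over both loci, Mrpl23 had 48.1 and 52.1 TPM (50.1 ± 2.81), rank 19 of 78, and a log2 ratio of 0.05 between the mice. With the sum in its place the members spanned an 18.5-fold range.

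Other members had copies too, with smaller effects. Copies were searched by 31-base words, and a gene counted as a copy of a member when its transcript shared 50% or more of its words with that member. With Mrpl23 and its processed copy included, there were 22 such genes for 14 members, and 12 of them were pseudogenes. The others were microRNA genes or genes that overlap a member on the same strand, such as Nme3. Of the 22 genes, 6 had at least 10 counts in both mice in the gene table, beside 2 in the second table. Nme3 and the processed copy of Mrpl23 are among those 6. Mrpl48-ps held 109 and 137 counts beside 1016 and 1200 on Mrpl48, and Gm5776 held 73 and 75.2 beside 908 and 1067 on Mrps33. For Mrps10 the pseudogene AC154457.3 held 30.4 and 55.3 counts beside 290 and 286 on the gene, or 9.48% and 16.2% of their sum. Mrps10 was the member with the lowest ratio after Mrpl23. For Mrps5 the pseudogene Gm13328 held 6.31% and 6.10% of the sum, and Nme3, which overlaps Mrps34 on the same strand, held 17.8% and 18.1% of theirs. Copies of other detected genes were not searched, so having copies cannot be called particular to the members.

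Exons of 28 members overlapped exons of a gene on the opposite strand and those of 8 a gene on the same strand. Among the latter are Mrpl53 with Gm42688, Mrps24 with Urgcp and Mrps6 with Slc5a3. No source used here says if strand entered the counting, so reads of such neighbours may have been shared. The share of all detected genes with such overlaps was not computed.

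Levels also depended on the quantification. Over detected protein-coding genes the second transcript table gave 1.15-fold higher TPM at the median, and relative to that shift 10 of the 78 members moved by at least 1.5-fold, beside 6.87% of detected genes. Across members Spearman's rho between the tables was 0.888, and 2560 of the 3003 pairs (85.2%) had the same order in both mice and both tables. Mrpl17 went down, from 45.5 and 51.0 TPM to 28.2 and 26.8 TPM. Upward went Mrpl27, from 20.4 and 22.8 to 45.5 and 52.2 TPM, Mrpl3, from 68.3 and 70.1 to 131.1 and 133.3 TPM, and Mrps33, from 36.7 and 40.6 to 70.9 and 76.3 TPM. Mrpl35 (16.4 and 18.5 to 32.5 and 32.3 TPM), Mrpl22 (18.9 and 20.7 to 34.9 and 37.0 TPM) and Mrps36 (71.7 and 79.0 to 130.9 and 137.9 TPM) also moved up. In each of these genes the tables differed in the same direction in both mice, by more than the mice differed.

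**Figure D4:**
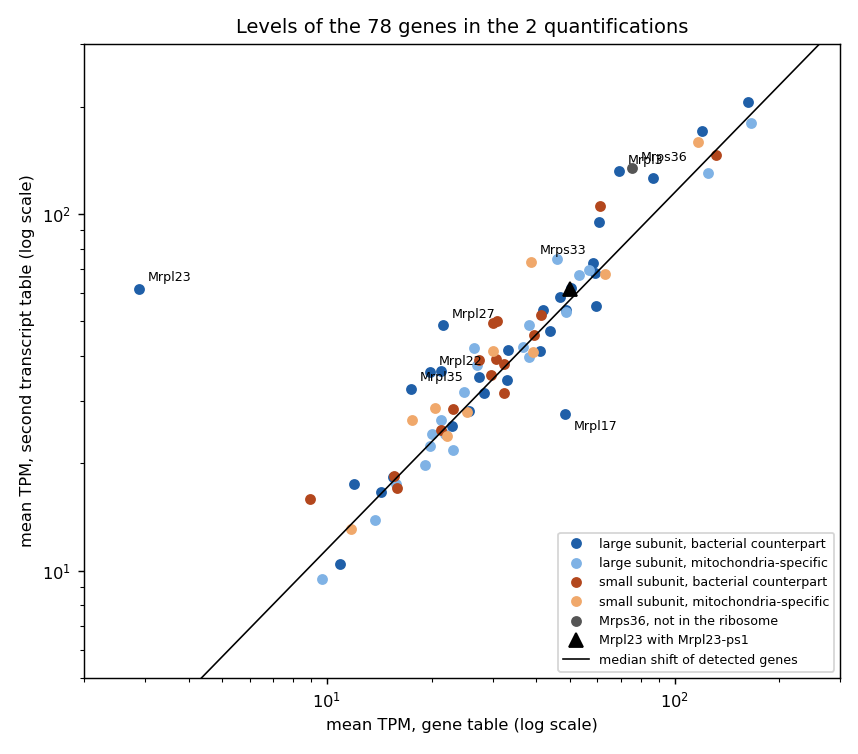
Mean TPM of each of the 78 genes in the gene table and in the second transcript table (both log scales), with a line at the 1.15-fold median shift of detected genes and names on the 8 members farthest from it. Mrpl23 lies far above the line at 2.88 and 61.9 TPM, and close to it when summed with its copy at 50.1 TPM (triangle).

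Much of the signal of some members lay on transcripts not annotated as protein coding. The 78 genes have 343 annotated transcripts, of which 170 are protein coding, 88 retained intron, 61 processed transcript and 24 subject to nonsense-mediated decay, the pathway that degrades mRNAs with early stop codons. Protein-coding transcripts held 77.75 ± 0.487% of the TPM of the members in the first transcript table and 71.5 ± 0.416% in the second. The transcript with the most TPM was protein coding in 62 members in the first table and in 61 in the second, and was the same transcript in both tables in 54. In 17 members more than 50% of TPM lay on other types, and in 19 in the second table. The same shares were not computed over all detected genes, so none can be called particular to the members.

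The members with the largest such shares were led by Mrps26, where 96.5% of TPM in replicate 1 and 97.2% in replicate 2 was on a retained-intron transcript. That transcript is 1057 bases long and the coding transcript Mrps26-202 is 4278. Mrps16 had 96.1% on the processed transcript Mrps16-202, of 801 bases, beside 2572 for the coding Mrps16-201. In both genes the second table gave nearly the same share, at 96.8% and 99.2%. Mrpl57 and Mrps25 had 93.4% and 92.8% on noncoding types, nearly all of it on retained-intron transcripts. Mrpl32 had 91.2%, most of it on Mrpl32-201 (80.7%), annotated for nonsense-mediated decay. Mrpl51, rank 4 of the 78 in TPM, had 93.1% and 93.8% on Mrpl51-202 and Mrpl51-203, so that its coding transcript stood at 8.04 and 8.16 TPM.

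For other members the tables placed the same reads on different transcripts. Mrps14 had 94.5% of its TPM on Mrps14-201, annotated for nonsense-mediated decay, in the first table and 4.56% there in the second, where Mrps14-202, a coding transcript, had 51.2 and 45.7 TPM. Mrps11 moved likewise, from 59.8% to 8.58% on noncoding types. Mrpl17 and Mrpl38 moved the other way, from 18.1% to 75.95% and from 8.26% to 77.3%. Mrpl15 had 94.6% and 82.9% on noncoding types, Mrps24 88.2% and 97.5%, and Mrpl3 88.8% and 82.0%. When protein-coding transcripts alone were summed, the median of the 78 genes was 22.5 ± 0.636 TPM in the first table and 28.4 ± 0.577 in the second. Then 76 members were at or above 1 TPM in both mice in either table, and 4 stood at or above 100 TPM in both mice, Mrpl42, Mrpl30, Mrps21 and Mrps23 in each table.

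**Figure D5:**
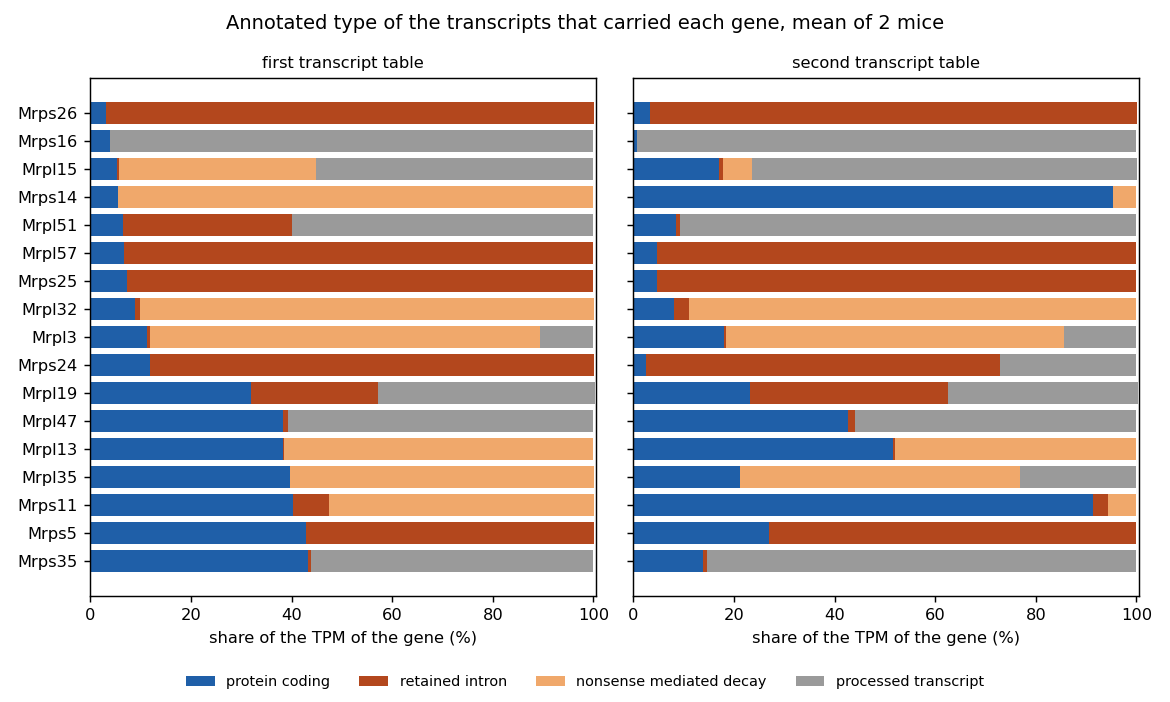
Share of the TPM of a gene on each annotated transcript type in the first (left) and the second (right) transcript table, mean of 2 mice, for the 17 members with more than 50% outside protein-coding transcripts in the first table. Mrps14 and Mrps11 are mostly noncoding in the first table and mostly coding in the second, while Mrps26 and Mrps16 are alike in both.

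As genes, the members were short beside all detected genes and often shared a start region with a neighbour. They lay on 17 chromosomes, with 11 on chromosome 11 and 8 on chromosome 17. The coding transcript with the most TPM in each gene had a median of 4 exons and 1093 bases, beside 9 exons and 2761 bases for detected protein-coding genes. The medians were 4 exons and 681.5 bases for complex I subunits and 5 exons and 677 bases for cytosolic ribosomal proteins, so shortness was not particular to the members. A protein-coding gene on the opposite strand started within 1000 bases in 33 members (42.3%), beside 16.5% of detected protein-coding genes, 19.5% of cytosolic ribosomal proteins and 44.4% of complex I subunits. Noncoding genes were not counted as neighbours. Across the 78 genes the transcript length of a gene, averaged over the mice, and its TPM had a Spearman's rho of -0.53. In the second table rho was -0.61. The lengths are full and not effective lengths. Both values are descriptions only, since TPM itself is corrected for transcript length.

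The neighbours of these shared starts came from many functions, and their levels ranged from near 0 to far above those of the members. The 33 members formed 32 pairs, since Mrps11 and Mrpl46 are each other's neighbour. Of the 33 neighbours 25 were at or above 1 TPM in both mice, and 8 were higher than the member in both mice. Mrpl36 had 21.2 ± 1.30 TPM and its neighbour Ndufs6, a complex I subunit, 476 ± 22.8 TPM. Mrpl47 had 14.3 ± 1.10 TPM beside 348 ± 13.2 TPM for Ndufb5, also of complex I, and Mrpl49 13.8 ± 1.65 TPM beside 224 ± 27.2 TPM for Fau, which encodes a cytosolic ribosomal protein. In these pairs the mitoribosomal gene was the lower of the pair in both hearts. Both genes of the pair Mrps11 and Mrpl46 are mitoribosomal, at 15.6 ± 0.113 and 20.1 ± 0.205 TPM. Mrps12 had 21.3 ± 0.955 TPM and its neighbour Sars2, the mitochondrial seryl-tRNA synthetase, 5.24 ± 0.311 TPM, while Mrps27 and Ptcd2 had 17.5 ± 1.24 and 19.8 ± 0.290 TPM. Mrpl30, at 162.3 ± 13.0 TPM, shares its start region with Mitd1 at 1.47 ± 0.269 TPM.

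In 15 of the 33 members the paired genes overlapped at their starts, and in 18 the starts lay apart, by at most 100 bases in 11 and by 935 bases in the widest pair, Mrpl41 and Pnpla7. The stretches of 4 pairs are shown because the neighbour stood far above the member beside Mrpl49, near it beside Mrps27 and below it beside Mrps12 and Mrpl30, with the stretch before the start of Mrpl12, which has no such neighbour, as the highest gene of the stalk. Each is given on the strand of the mitoribosomal gene from the RefSeq promoters of GRCm38.p6, at chr19:6057786-6057843, minus strand for Mrpl49, chr13:99344706-99344785, plus strand for Mrps27, chr7:28741822-28741991, minus strand for Mrps12, chr1:37890412-37890476, plus strand for Mrpl30 and chr11:120484387-120484612, plus strand for Mrpl12. Capitals mark a match to the motifs of NRF1 (GCGC, any 2 bases, GCGC) or of ETS factors (CCGGAAG) on either strand.
Mrpl49: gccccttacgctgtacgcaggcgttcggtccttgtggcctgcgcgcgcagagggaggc
Mrps27: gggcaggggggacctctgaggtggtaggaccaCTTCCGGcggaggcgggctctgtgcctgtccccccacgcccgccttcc
Mrps12: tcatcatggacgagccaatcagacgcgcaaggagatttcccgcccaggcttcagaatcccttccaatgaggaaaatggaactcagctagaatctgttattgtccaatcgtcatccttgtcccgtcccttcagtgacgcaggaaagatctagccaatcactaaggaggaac
Mrpl30: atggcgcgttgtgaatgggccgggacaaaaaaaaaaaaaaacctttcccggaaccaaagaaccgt
Mrpl12: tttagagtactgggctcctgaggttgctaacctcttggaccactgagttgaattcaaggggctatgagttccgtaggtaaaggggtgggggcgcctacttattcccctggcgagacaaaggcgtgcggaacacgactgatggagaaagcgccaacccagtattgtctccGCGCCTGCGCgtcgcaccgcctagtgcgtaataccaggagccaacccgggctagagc
Mrps27 holds 1 match to the ETS motif and Mrpl12 holds 1 match to the NRF1 motif, and the other stretches hold none. In the wider promoter windows counted below, Mrpl30 has the NRF1 letters and Mrps12 the ETS letters, outside the stretches shown.

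NRF1, the ETS factor GABP and YY1 are known regulators of nuclear genes for mitochondrial proteins, and their motifs were counted over the promoters, from 250 bases before to 50 bases after the RefSeq start, on both strands. Promoters matched 69 of the 78 members and 8751 of the detected protein-coding genes. The NRF1 letters were in 14 members (20.3%), beside 15.7% of detected genes and 6.23% of all 32851 promoters. The ETS letters were in 26 (37.7%), beside 20.97% and 8.86%, and the YY1 letters (AAGATGGC) in 12 (17.4%), beside 5.52% and 2.75%. At least 1 of the NRF1 and ETS motifs was in 36 members (52.2%), beside 33.2% of detected genes. Members with and without the ETS letters had median levels of 35.9 and 27.4 TPM, and those with and without the YY1 letters 21.3 and 30.0 TPM. For the NRF1 letters these medians were 33.2 and 29.7 TPM. The TATA letters (TATAAA) were in 5 members (7.25%), beside 8.70% of detected genes. Members with and without them had medians of 32.4 and 29.0 TPM. A link between motifs and levels was not tested. A match describes letters in this window and not a bound site.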

How the data were processed

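Total RNA libraries of 2 mouse hearts were analysed. The authors used build mm10 and GENCODE M21, per the deposited README, and quantified a gene table and a first transcript table from an alignment and a further transcript table, called second here, from the reads. The sources used here do not give the aligner, the quantifiers or their versions. RSEM and kallisto write such column names. For genes, TPM, FPKM, posterior means and expected counts were deposited by the authors, with the bounds of an interval of TPM (a signal at or above 0), and the percent of each gene on each transcript, per the file headers. Estimated counts and TPM fill the other transcript table, as deposited.

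Levels are TPM per mouse with mean and SD. Expected counts were rounded to whole numbers and scaled by TMM in edgeR 4.0.16 (R 4.3.3). Log2 ratios took a prior count of 0.5 and genes averaging at least 50 expected counts, and intervals are exact Clopper-Pearson at 95%. Median half-width of a member's log2 interval was 0.13, so the depth resolves about that much. Spike-ins were left out of totals. Tested on simulated counts of the 12453 genes, the 1.5-fold threshold called 100 of 100 genes changed 4-fold and 56 of 100 changed 1.5-fold. It called 52 of 12253 unchanged genes. The simulation gave every gene the same assumed variation between mice, not estimated from these data, so these rates hold for that setting only. Words, alignments, structures and motifs were computed in Python 3.11.15 (scipy 1.17.1, pandas 2.3.3, numpy 2.4.6).

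The members are fixed by symbol and transcript type alone, but this gene family and the lists were picked for description with earlier results of these data known. The genes named are the 10 highest and 10 lowest, those below 1 TPM in a mouse, the 3 highest and 2 lowest of each class, all members of the structural, paralog and disease lists, the 5 largest ratios in each direction, the 8 farthest apart between tables and the 10 with the largest noncoding share; of related lists, all other-symbol proteins and ribosomal RNAs and the 3 highest and 2 lowest factors and assembly genes. Genes named for copies, overlaps and shared starts were picked with their values known. Tried as alternatives were posterior mean TPM, the second transcript table, FPKM, rescaled TPM, DESeq2 1.42.0 size factors, total and spike-in scaling, other thresholds, priors and filters, and leaving out each mouse.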

Additional observations from a re-analysis of the deposited data

How the results depend on the processing

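No paired analysis was possible because the labels give a single group. In the second transcript table the median TPM was 39.2 for all 78 genes, 40.5 for the large and 38.5 for the small subunit, the large over small ratio 1.05, the ratio by origin 1.05, the protein-coding share 71.5%, and 0 members were at least 1.5-fold apart, so that call rests on the gene table. As FPKM the medians were 23.8, 25.8 and 23.4, and rescaled to nuclear protein-coding genes 77.2, 83.6 and 75.7 TPM. With genes at 1 TPM or more in both mice the median of the members was 30.6 and the ratio by origin 1.20; with posterior mean TPM that ratio was 1.19. Without Mrpl23, an alternative chosen after seeing the data, the median was also 30.6 and the SD of log2 TPM at the tunnel exit 0.58 in place of 1.28. With spike-in scaling the median log2 ratio of the members was 0.21. With a mean count of at least 10 and with no filter, 1262 and 7568 genes were at least 1.5-fold apart in place of 260, and still 1 member.

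Leaving out each mouse, the median of the members ranged from 29.96 to 30.3 TPM, of the large subunit from 31.8 to 33.4 and of the small from 29.4 to 29.8, large over small from 1.08 to 1.12, the ratio by origin from 1.178 to 1.179, complex I over members from 10.3 to 11.2, cytosolic ribosomal proteins over members from 6.51 to 7.27, and members at 1 TPM from 77 to 78. Of the TPM of the 78 single genes, 68 moved by more than the spread between mice in the second table and 9 with posterior means. The ratio of complex I and of cytosolic ribosomal proteins to the members moved by less than that spread under every alternative run. With 1 library per mouse, the interval of a member's ratio covers counting error alone. Other differences between the libraries lie outside it and were not measured.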
